A study of Mus musculus with 12 samples.

Results

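The transforming growth factor beta (TGF-beta) ligand gene Tgfb1, its receptor genes Tgfbr1 and Tgfbr2, the SMAD genes Smad2, Smad3, Smad4 and Smad7, and the repressor genes Ski and Skil were followed in cultured regulatory T cells (Tregs). They were taken by their symbols, and all 9 were found among the 55228 symbols of the expression table. All 9 had an average of 1 TPM or more (TPM is an RNA level corrected for transcript length and library total) and were tested with the 15043 genes that reached that level. The cells were Foxp3-GFP+CD25+ Tregs sorted from the lymph nodes of NOD.Foxp3-GFP mice, a diabetes-prone strain with a fluorescent reporter of Foxp3. EV no IL-2 Tregs carried the empty retroviral vector, which encodes the surface marker Thy1.1, and were kept without added IL-2. EV+IL-2 Tregs carried the same vector and stayed in medium with recombinant mouse IL-2. The tether groups, 1G12t and 3A10t, expressed from that vector an orthogonal IL-2 (1G12 or 3A10) joined to the orthogonal IL-2 receptor beta chain, and also had no added IL-2. All 4 groups had been activated, transduced on day 2, and sorted as Thy1.1+ cells on day 9. IL-2 was washed out on day 4 from 3 of the groups, which left 5 days without it. The labels give no age or sex for these mice. Each group had 3 libraries. Cells of 16 mice were pooled and divided into 3 parts before sorting, so replicates were separate cultures of 1 pool rather than separate animals, and the p-values measure the spread between such cultures. A replicate number marks the same sort in every group.

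TGF-beta1 is made as a latent complex, which Tregs can hold at their surface through GARP, the product of Lrrc32, until integrins release it. The freed ligand binds the type II receptor (Tgfbr2), which activates the type I receptor (Tgfbr1). The type I receptor phosphorylates SMAD2 and SMAD3, and these join SMAD4 and enter the nucleus to regulate genes. SMAD7 acts back on the receptor as an inhibitor, and SKI and SKIL (SnoN) are corepressors that bind the SMAD complex. In T cells the pathway is known for inducing Foxp3 and for restraining activation. IL-2, which the tethered constructs replace, signals mainly through STAT5.

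Promoter sequences of the receptor genes and of Smad3 are shown because the receptor pair is compared within libraries and Tgfbr2 and Smad3 hold the calls of 3A10t Tregs. They are RefSeq sequences of GRCm38.p6, each from 250 bases before to 50 bases after the transcription start, read 5′ to 3′ on the strand of the gene. A promoter was found for 5 of the 9 genes, 6 promoters in all, since Tgfbr1 has a second start. Capitals mark CAGAC, which holds the core of a SMAD-binding element, in Tgfbr2, and GGGCGG, the GC box bound by Sp1 proteins, in the others. The Tgfbr2 promoter is at chr9:116175314-116175613 on the minus strand, the Tgfbr1 promoter at chr4:47352972-47353271 on the plus strand, and the Smad3 promoter at chr9:63757945-63758244 on the minus strand.
Tgfbr2: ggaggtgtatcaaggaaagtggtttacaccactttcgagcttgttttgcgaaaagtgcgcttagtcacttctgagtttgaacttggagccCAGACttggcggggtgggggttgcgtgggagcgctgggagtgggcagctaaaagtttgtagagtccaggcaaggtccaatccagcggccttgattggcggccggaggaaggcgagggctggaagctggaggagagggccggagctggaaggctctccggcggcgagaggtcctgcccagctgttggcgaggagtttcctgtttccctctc
Tgfbr1: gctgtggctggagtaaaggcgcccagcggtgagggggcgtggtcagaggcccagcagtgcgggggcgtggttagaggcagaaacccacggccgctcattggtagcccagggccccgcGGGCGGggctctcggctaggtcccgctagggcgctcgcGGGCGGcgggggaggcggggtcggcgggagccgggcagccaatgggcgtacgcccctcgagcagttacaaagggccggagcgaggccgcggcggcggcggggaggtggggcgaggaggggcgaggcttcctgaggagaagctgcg
Smad3: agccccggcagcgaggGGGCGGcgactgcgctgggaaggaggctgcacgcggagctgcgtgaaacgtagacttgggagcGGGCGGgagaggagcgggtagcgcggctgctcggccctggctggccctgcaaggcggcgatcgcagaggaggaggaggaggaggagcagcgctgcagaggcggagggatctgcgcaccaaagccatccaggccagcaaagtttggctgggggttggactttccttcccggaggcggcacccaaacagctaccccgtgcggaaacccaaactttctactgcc
Both strands were searched for CAGAC, for GGGCGG and for TTCNNNGAA, the palindrome bound by STAT5. Tgfbr2 held 1 CAGAC, at position -160 from the start, and neither of the other motifs. Tgfbr1 and Smad3 each held 2 GGGCGG and no CAGAC in the promoters shown. TTCNNNGAA was in none of the 6. Of 32851 mouse promoters of the same length, 49.6% held CAGAC, 35.7% held GGGCGG and 8.3% held TTCNNNGAA. A match here is only a run of letters, and binding was not measured.

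RNA levels are given as scaled TPM, that is the deposited TPM divided by 1 factor per library (median of ratios, 0.854 to 1.09). A group difference is on the log2 scale of scaled TPM + 1, which understates changes of weakly expressed genes. Unless another threshold is named, a gene is called when its Benjamini-Hochberg adjusted p from limma, over the 15043 genes, is under 0.05. TPM keep no record of read number, so the depth of the libraries is unknown. The error given with a group mean is the SD over 3 libraries. The standard error (SE), interval and p from limma use 1 estimate of the spread per gene, shared by all 4 groups. Libraries outside a comparison therefore also enter its p. The cells were measured in bulk, so fewer cells expressing a gene and less RNA per cell cannot be told apart. Il2, which the tethered constructs carry, was at 18.3 to 29.8 scaled TPM in 3A10t and 12.9 to 24.9 in 1G12t libraries, against 0.181 to 0.491 in the EV libraries. All 6 T cell and Treg markers, Foxp3 among them, were present in every group. Their summed level was 1596 to 1930 scaled TPM in 3A10t, 1914 to 1985 in 1G12t, 2222 to 2242 in EV+IL-2 and 1840.4 to 1941 in the EV no IL-2 libraries. Foxp3 itself, which TGF-beta also induces, was at 463, 369 and 391 in 3A10t, below the 484 to 510 of all other libraries. Its log2 difference of 3A10t was -0.31 from EV+IL-2 (limma adjusted p 0.019) and -0.28 from EV no IL-2 (adjusted p 0.082). Foxp3 was thus called lower in 3A10t only against EV+IL-2, where 23.4% of all genes were called. As given below, Smad3 was also called lower in 3A10t against EV+IL-2 only, and Tgfbr2 and Itgae against EV no IL-2. The part of Foxp3 in these differences was not tested. The 9 tested genes listed as induced by TGF-beta in T cells or widely did not share a direction in 3A10t against EV no IL-2. Itgae, Foxp3 and Nt5e were lower on average, while Cdkn1a, Id1, Id2, Id3, Cdkn2b and Junb were higher. Of the 9, Itgae alone was called, and the higher genes had limma adjusted p of 0.12 to 0.63. The median log2 difference of the 9 was 0.18. Smad7, which TGF-beta induces in many cells but which is not on this list, was lower (log2 difference -0.63, limma adjusted p 0.10). The summed B cell markers lay between 8.34 and 16.0, with 11.3 to 16.0 in 3A10t Tregs. The 2 CD8 T cell markers summed to 3.45 to 6.51, the fibroblast markers to 0.910 to 3.09 and the platelet and megakaryocyte markers to 0.756 to 3.89. Of 5 myeloid markers, Cst3 alone had a group mean of at least 1, at 440 to 762, and it was highest in 3A10t replicate 2. The highest library was at 0.480 scaled TPM for Lyz2, in 3A10t. In 1G12t lay the highest values of S100a8 (0.869), S100a9 (0.965) and Csf1r (1.73). The myeloid marker S100a8 and the platelet marker Ppbp were listed at 0 in all EV+IL-2 libraries. The part of these cell types in the results was not tested. The 3 libraries of 3A10t lay further apart than those of other groups. The median SD of the 9 genes on the log2 scale was 0.24 in 3A10t and 0.19 in 1G12t, against 0.10 in EV no IL-2 Tregs and 0.082 in EV+IL-2. In 3A10t, replicate 2 was the lowest library for 8 of the 9 genes and replicate 1 the highest for 6, and in 1G12t replicate 3 was the highest for 8.

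Tgfbr2 was the most abundant of the 9 genes per length, with a mean of 48.4 scaled TPM over the 12 libraries, followed by Smad2 at 43.2 and Skil at 42.1. Ski (19.2), Smad7 (16.8), Tgfbr1 (14.8), Smad4 (12.6) and Smad3 (11.2) were lower, and Tgfb1 was lowest at 7.43. The genes also differed in how far they ranged. The highest library was 3.03 times the lowest for Ski, 2.78 times for Smad7 and 2.69 times for Tgfbr2, but 1.99 times for Smad4 and 1.72 times for Tgfbr1, and less for Smad2 and Skil. When the 4 groups were put in order of their mean for each gene, 0 of the steps between neighbouring groups passed the adjusted threshold, the smallest adjusted p being 0.0930 for the step in Smad7 from EV+IL-2 to EV no IL-2.

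**Figure D1:**
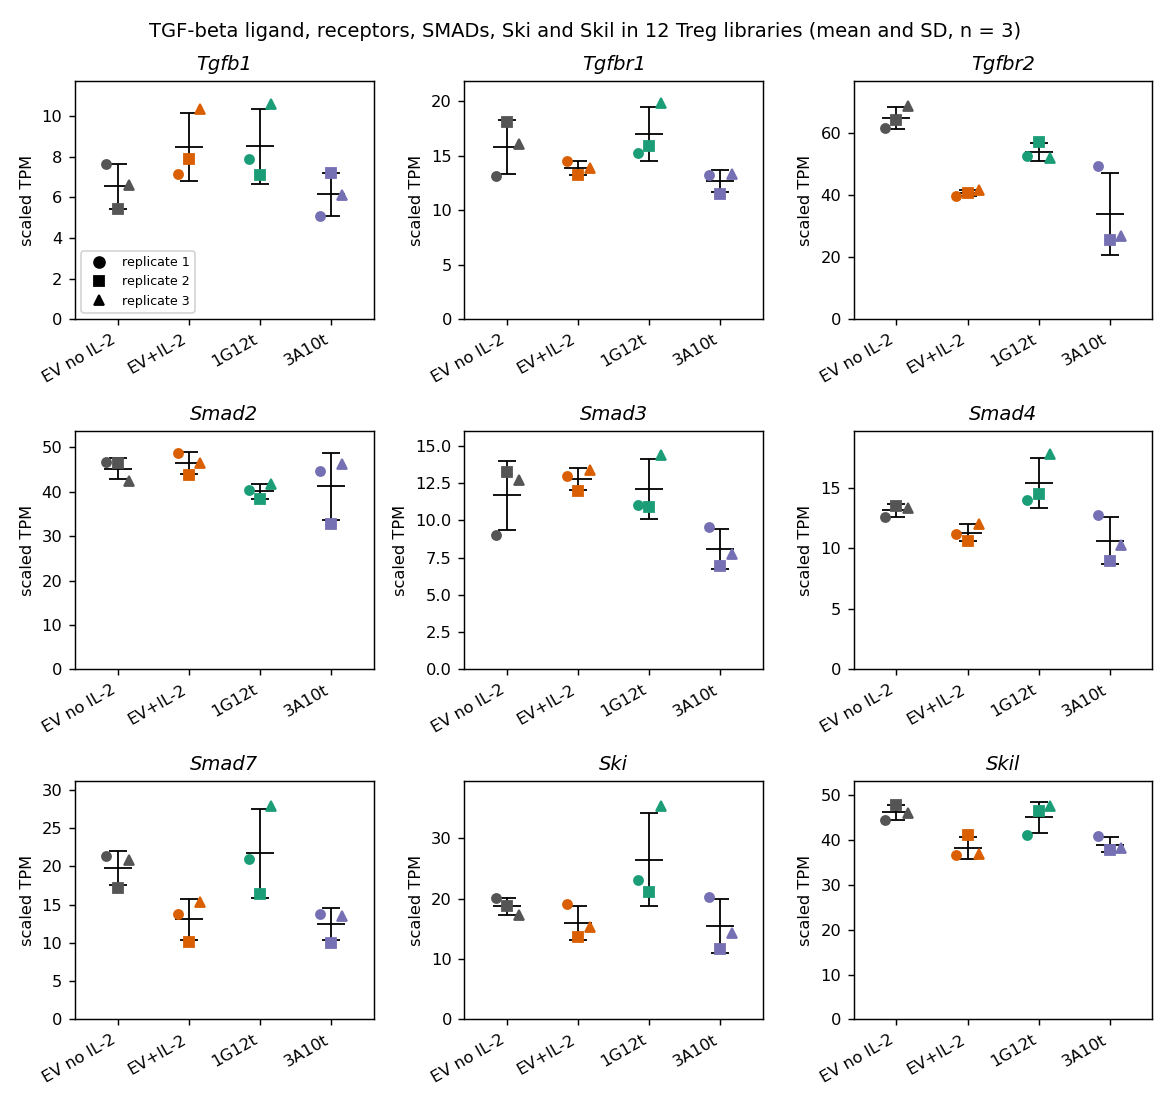
Scaled TPM (linear axis from 0) of the 9 genes in the 12 libraries, by group, with the marker shape giving the replicate number and bars the mean and SD of 3 libraries. Tgfbr2 lies at 61.8 to 68.8 in EV no IL-2, against 39.6 to 41.8 with IL-2, while the 3A10t libraries are spread from 25.6 to 49.3.

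Tgfb1 encodes the ligand (chr7:25687002-25705077, plus strand, GRCm38). It was at 7.63, 5.42 and 6.61 scaled TPM in the EV no IL-2 libraries, 7.88, 7.09 and 10.6 in 1G12t, 5.10, 7.22 and 6.14 in 3A10t, and 7.17, 7.91 and 10.4 in EV+IL-2. The groups overlapped in every comparison. The log2 difference from EV no IL-2 was 0.33 (95% interval -0.075 to 0.72) in EV+IL-2, 0.33 (-0.073 to 0.73) in 1G12t and -0.078 (-0.48 to 0.32) in 3A10t. These intervals leave room for a change in either direction. Between the constructs, the log2 difference of 3A10t from 1G12t was -0.41 (interval -0.81 to -0.0058), with an adjusted p of 0.16 by limma.

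Tgfbr2, the type II receptor gene (chr9:116084293-116175360, minus strand), had both of the calls against EV no IL-2. Its scaled TPM were 61.8, 64.2 and 68.8 in EV no IL-2, 52.7, 57.3 and 52.1 in 1G12t, 49.3, 25.6 and 27.0 in 3A10t, and 39.6, 40.6 and 41.8 in EV+IL-2. All libraries of the other 3 groups lay below all EV no IL-2 libraries. EV+IL-2 was a tight group, whereas 3A10t replicate 1 lay near the 1G12t libraries and the other two 3A10t libraries lay below every other library. In EV+IL-2 the level fell to 40.7 ± 1.07 from 64.9 ± 3.56 (SD, n = 3), a log2 difference of -0.66 (SE 0.19, limma adjusted p 0.047). In 3A10t it fell to 34.0 ± 13.3, a log2 difference of -0.98 (SE 0.19, adjusted p 0.038). In 1G12t it was 54.0 ± 2.87, with a log2 difference of -0.26 (interval -0.69 to 0.17) and an adjusted p of 0.78. Within the 3 sorts, in the order of the replicate numbers, the log2 difference from EV no IL-2 was -0.63, -0.65 and -0.71 in EV+IL-2, -0.32, -1.30 and -1.32 in 3A10t, and -0.23, -0.16 and -0.39 in 1G12t. Tgfbr2 thus lay lower in each sort and group, and by a much smaller amount in the first sort of 3A10t.

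Both Tgfbr2 calls were close to the threshold. With a replicate block the adjusted p was 0.064 in EV+IL-2, so that this call was lost, and 0.045 in 3A10t. The EV+IL-2 call held in 8 of 22 alternative analyses, with adjusted p from 1.7e-04 to 0.15, and the 3A10t call in 8 of 22, from 3.6e-05 to 0.26. Without 3A10t replicate 1 the log2 differences were -0.66 and -1.27, at these lowest values of p. That library is outside the EV+IL-2 comparison and enters it through the shared estimate of the spread. The SD of Tgfbr2 on the log2 scale was 0.51 in 3A10t, against 0.077 in EV no IL-2, 0.074 in 1G12t and 0.037 in EV+IL-2. The EV+IL-2 call was lost without any one of the EV no IL-2, EV+IL-2 or 1G12t libraries or 3A10t replicate 3 (adjusted p 0.050 to 0.15). The 3A10t call was lost without any one library other than 3A10t replicate 1 (0.055 to 0.15), and was at 0.26 when only the 6 libraries compared were fitted.

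Tgfbr1, the type I receptor gene (chr4:47353222-47414931, plus strand), varied less. It was at 13.1, 18.1 and 16.1 scaled TPM in the EV no IL-2 group, 15.3, 15.9 and 19.8 in 1G12t, 13.2, 11.5 and 13.3 in 3A10t, and 14.6, 13.3 and 13.9 in EV+IL-2. The 3A10t libraries lay below all 1G12t libraries and overlapped the EV libraries of both kinds. No comparison was called. The log2 difference of 3A10t was -0.28 (interval -0.57 to -0.0038, adjusted p 0.19) from EV no IL-2 and -0.39 (-0.67 to -0.11, adjusted p 0.082) from 1G12t.

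The ratio of Tgfbr1 to Tgfbr2 within a library does not depend on the scaling factors. It was 0.404 ± 0.120 in 3A10t, 0.316 ± 0.0562 in 1G12t, 0.342 ± 0.0224 with IL-2 in EV+IL-2, and 0.243 ± 0.0352 in EV no IL-2 (SD, n = 3). The 3 EV+IL-2 libraries lay at 0.326 to 0.368, above the 0.213 to 0.281 of EV no IL-2. In 3A10t, replicates 2 and 3 were at 0.451 and 0.493 and replicate 1 was at 0.268, inside the EV no IL-2 range. These ratios were not tested.

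**Figure D2:**
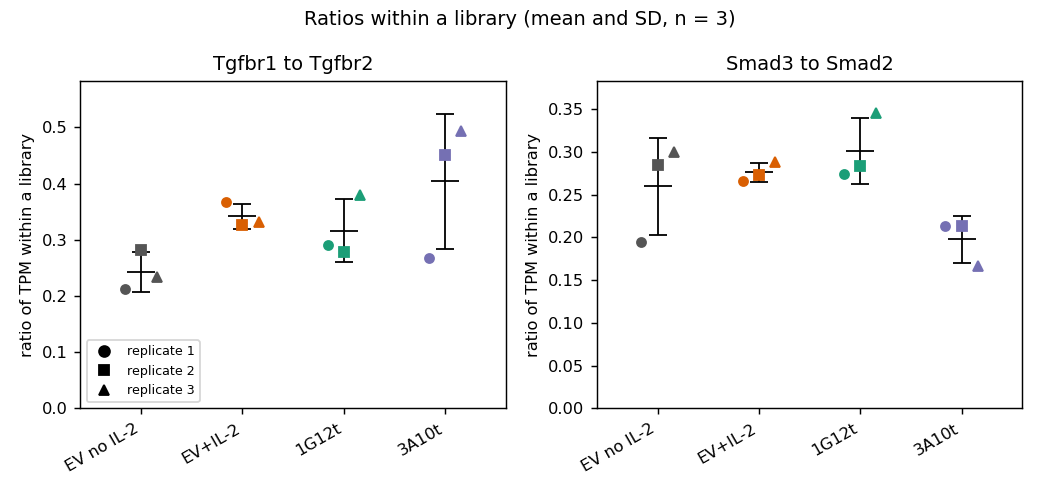
Ratio of TPM of Tgfbr1 to Tgfbr2 (left) and of Smad3 to Smad2 (right) within each library, by group, with mean and SD of 3 libraries and linear axes from 0. The Tgfbr1 to Tgfbr2 ratio was 0.326 to 0.368 in EV+IL-2 against 0.213 to 0.281 in EV no IL-2, and the Smad3 to Smad2 ratio was 0.166 to 0.214 in 3A10t.

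Of the receptor-activated SMAD genes, Smad2 gave no call and Smad3 was below its EV+IL-2 level in 3A10t. Smad2 was at 46.6, 46.6 and 42.4 scaled TPM in the EV no IL-2 group, 40.3, 38.4 and 41.8 in 1G12t, 44.7, 32.6 and 46.3 in 3A10t, and 48.8, 43.9 and 46.5 in EV+IL-2. The 1G12t libraries lay below both sets of EV libraries, but no Smad2 comparison was called, the largest log2 difference being -0.20 (interval -0.47 to 0.061) for 1G12t against EV+IL-2. Smad3 (chr9:63646767-63757994, minus strand) was at 9.04, 13.3 and 12.7 in EV no IL-2, 11.0, 10.9 and 14.4 in 1G12t, 9.54, 6.94 and 7.71 in 3A10t, and 13.0, 11.98 and 13.4 in EV+IL-2. All 3A10t libraries lay below all EV+IL-2 and 1G12t libraries, while EV no IL-2 replicate 1 lay within their range. Smad3 fell from 12.8 ± 0.738 in EV+IL-2 to 8.06 ± 1.33 in 3A10t, a log2 difference of -0.61 (SE 0.16, limma adjusted p 0.019). This call held in 17 of 22 alternatives and was lost without 3A10t replicate 2 or 3 or EV+IL-2 replicate 1 or 3, at adjusted p 0.060 to 0.069. Against EV no IL-2 the log2 difference of 3A10t was -0.48 (interval -0.83 to -0.13, adjusted p 0.11), and against 1G12t it was -0.53 (-0.88 to -0.18, adjusted p 0.068). The ratio of Smad3 to Smad2 was 0.198 ± 0.0270 in 3A10t against 0.301 ± 0.0388 in 1G12t, 0.276 ± 0.0115 in EV+IL-2 and 0.259 ± 0.0572 in EV no IL-2. The 3A10t ratios, 0.166 to 0.214, overlapped those of EV no IL-2, 0.194 to 0.300, and lay below the others.

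Smad4, which encodes the common partner of SMAD2 and SMAD3, was higher in 1G12t than in EV+IL-2. Its scaled TPM were 12.5, 13.5 and 13.3 in EV no IL-2, 13.9, 14.4 and 17.7 in 1G12t, 12.7, 8.92 and 10.2 in 3A10t, and 11.2, 10.6 and 11.997 in EV+IL-2. The 1G12t libraries lay above all others. The log2 difference of 1G12t from EV+IL-2 was 0.41 (SE 0.13, limma adjusted p 0.041), held in 12 of 22 alternatives. It was lost without any one EV no IL-2 or EV+IL-2 library, 1G12t replicate 2 or 3, or 3A10t replicate 3, at adjusted p 0.057 to 0.14. From EV no IL-2 the log2 difference was 0.21 in 1G12t, -0.20 in EV+IL-2 and -0.29 in 3A10t, with adjusted p of 0.74, 0.36 and 0.17. On the annotation used, 1 processed pseudogene on the opposite strand overlaps Smad4, and none of the other genes overlaps another gene.

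Smad7, the inhibitory SMAD gene, is itself induced by TGF-beta in many cells. It was at 21.3, 17.2 and 20.8 scaled TPM in the EV no IL-2 group, 20.9, 16.4 and 27.9 in 1G12t, 13.8, 10.0 and 13.6 in 3A10t, and 13.8, 10.2 and 15.4 in EV+IL-2. The libraries fell into a lower range for EV+IL-2 and 3A10t, 10.0 to 15.4, and a higher one for EV no IL-2 and 1G12t, 16.4 to 27.9, with no overlap. This split was seen in the values, and how many of all genes share it was not counted. The shares for single pairs of groups are given with the comparisons below. Replicate 2 was the lowest in each of the 4 groups. Smad7 was higher in 1G12t than in EV+IL-2, with a log2 difference of 0.68 (SE 0.20, limma adjusted p 0.038), past the threshold in 14 of 22 alternatives. That call was lost without 3A10t replicate 3, 1G12t replicate 1 or 3, EV no IL-2 replicate 1 or 3, or EV+IL-2 replicate 1 or 2, at adjusted p 0.052 to 0.15. From EV no IL-2, 1G12t differed by only 0.10 on the log2 scale (interval -0.34 to 0.55, limma adjusted p 0.91), with overlapping libraries. Against EV no IL-2 the log2 difference was -0.57 in EV+IL-2 (SE 0.20, adjusted p 0.093) and -0.63 in 3A10t (SE 0.20, adjusted p 0.10). With the replicate block the EV+IL-2 and 3A10t differences were called, at adjusted p 0.0070 and 0.030. Within the sorts the log2 difference was -0.60, -0.70 and -0.41 in EV+IL-2 and -0.60, -0.72 and -0.58 in 3A10t.

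The corepressor genes Ski (chr4:155154075-155222592, minus strand) and Skil (chr3:31095058-31122577, plus strand) gave no call in the 6 comparisons. Ski was at 20.0, 18.8 and 17.3 scaled TPM in the EV no IL-2 group, 23.1, 21.1 and 35.3 in 1G12t, 20.4, 11.7 and 14.3 in 3A10t, and 19.1, 13.7 and 15.3 in EV+IL-2. The 1G12t libraries lay above all others, with replicate 3 far above replicates 1 and 2. The log2 difference of 1G12t from EV+IL-2 was 0.67 (SE 0.22), with a limma adjusted p of 0.053, which became 0.041 with the replicate block. Skil was at 44.4, 47.9 and 46.2 in EV no IL-2, 41.1, 46.4 and 47.7 in 1G12t, 41.0, 37.7 and 38.4 in 3A10t, and 36.8, 41.1 and 37.0 in EV+IL-2. The EV+IL-2 and 3A10t libraries lay below all EV no IL-2 libraries, by small amounts. The log2 difference was -0.27 (SE 0.082, adjusted p 0.057) in EV+IL-2 and -0.24 (SE 0.082, adjusted p 0.12) in 3A10t. In EV+IL-2 it passed the threshold in 7 of 22 alternatives, among them the fits without 1G12t replicate 1 or 3 (adjusted p 0.039 and 0.048) and without 3A10t replicate 1 or 2 (0.036 and 0.037).

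The comparison of EV+IL-2 with EV no IL-2 shows the 9 genes under IL-2 itself. It called 1 of the 9, Tgfbr2, where 13.3% of all genes tested were called, so the count was near that of genes at large. At the threshold used in the study, an unadjusted p under 0.01 and a log2 difference beyond 0.25, Tgfbr2 and Skil passed, 2 of 9, against 15.1% of all genes. For Tgfbr2, Smad4, Smad7 and Skil, 4 of 9, all EV+IL-2 libraries lay below all EV no IL-2 libraries, as for 20.0% of all genes. Without 3A10t replicate 1 or 2 the count was 2, Tgfbr2 and Skil. The median log2 difference of the 9 was -0.20, against -0.014 over all genes.

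The comparison of 3A10t with EV no IL-2 asks what the 3A10 tether changed without added IL-2. It called 1 of the 9, Tgfbr2, against 2.05% of all genes. At the study's threshold Tgfbr2 and Smad7 passed, 2 of 9, against 9.50%. Tgfbr2, Smad7 and Skil, 3 of 9, were lower in all 3 libraries than in any EV no IL-2 library, against 12.1% of all genes. All 9 differences were negative, with a median of -0.29 against 0.026 over all genes, where 52.9% were positive. The count of called genes among the 9 ranged from 0 to 4 when single libraries were left out. It was 4 without 3A10t replicate 1, when Tgfbr2, Smad3, Smad4 and Skil were called. It was 0 without any one of the other 11 libraries. With the replicate block it was 2, Tgfbr2 and Smad7. The scaling matters for small differences. With TPM as deposited the median difference of all genes in this comparison moved from 0.026 to -0.091.

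The same question for the 1G12 tether gave 0 calls among the 9 by limma, where 0.0199% of all genes were called, and 0 with an unadjusted p under 0.05, where 7.04% of all genes had one. The largest log2 differences were 0.45 for Ski (interval -0.037 to 0.93, adjusted p 0.72) and 0.33 for Tgfb1. The median was 0.10, against -0.0038 over all genes. For Smad4 and Ski, 2 of 9, all 1G12t libraries lay above all EV no IL-2 libraries, against 8.68% of all genes. For Tgfbr2 and Smad2, 2 of 9, they lay below, against 7.80%. The comparisons of EV+IL-2, 3A10t and 1G12t with EV no IL-2 share the same 3 control libraries and are therefore not independent of each other.

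**Figure D3:**
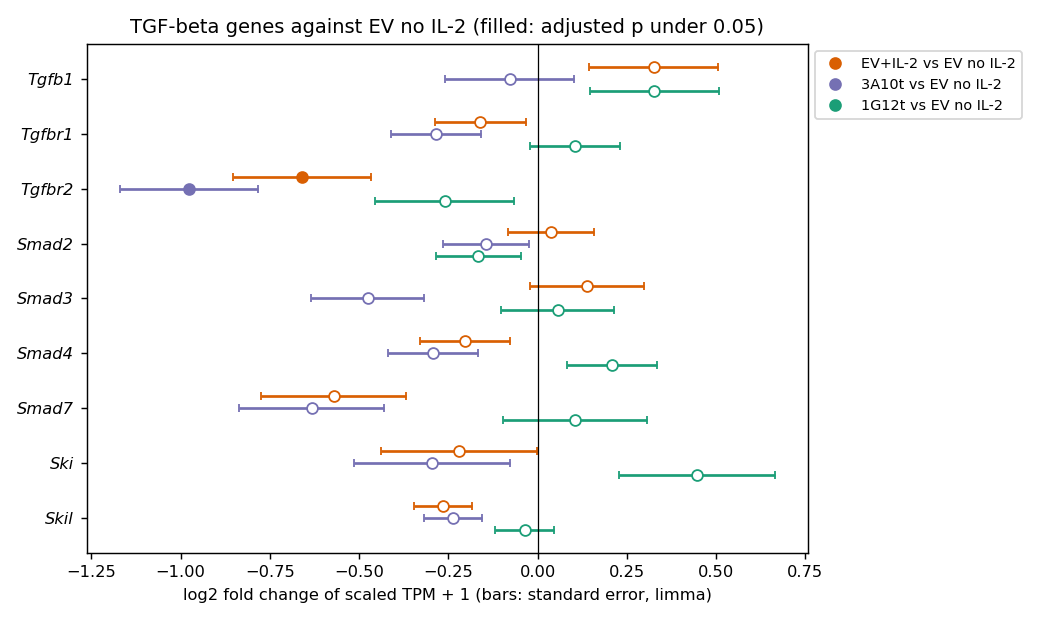
Log2 fold change of the 9 genes in EV+IL-2, 3A10t and 1G12t Tregs relative to EV no IL-2 (x axis, log2 of scaled TPM + 1), with bars for the standard error from limma and filled markers for adjusted p under 0.05. Tgfbr2 has the only filled markers, at -0.66 in EV+IL-2 and -0.98 in 3A10t, and all 9 values of 3A10t are below 0.

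Set against each other, the constructs gave no call among the 9 genes at the adjusted threshold, although most lay lower in 3A10t. In 3A10t against 1G12t, 0 of the 9 were called at an adjusted p under 0.05, against 4.27% of all genes, while 8 had an unadjusted p under 0.05, as had 29.7% of all genes. At the study's threshold 5 of 9 passed, all lower in 3A10t, against 12.4% of all genes, 7.06% being lower. These were Tgfbr2 (log2 difference -0.72, adjusted p 0.057), Smad3 (-0.53, 0.068), Smad4 (-0.50, 0.050), Smad7 (-0.74, 0.059) and Ski (-0.74, 0.067). For 7 of the 9, all but Tgfb1 and Smad2, every 3A10t library lay below every 1G12t library, as for 12.5% of all genes. The median log2 difference was -0.50, against -0.017 over all genes. With the replicate block Smad4 and Smad7 were called, at adjusted p 0.048 and 0.019. Without 3A10t replicate 1, 5 were called, and with TPM as deposited 7, a setting that moved the median of all genes to -0.18.

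Against EV+IL-2, the 3A10t Tregs differed in 1 of the 9, Smad3, where 23.4% of all genes were called. The median of the 9 was -0.12, against 0 over all genes. The 1G12t Tregs differed in 2, Smad4 and Smad7, both higher, where 20.6% of all genes were called. Tgfbr1, Tgfbr2, Smad4, Smad7 and Ski, 5 of 9, were higher in all 1G12t libraries than in any EV+IL-2 library, as for 21.2% of all genes. Their median log2 difference over the 9 genes was 0.27, against 0.016 over all. The difference between the constructs was itself tested only in the comparison of 3A10t with 1G12t. The count of calls in 1G12t ranged from 0 to 5 over single libraries left out, with 5 without 3A10t replicate 1 or 2 and 0 without EV no IL-2 replicate 1 or 3, EV+IL-2 replicate 1 or 2, 1G12t replicate 3 or 3A10t replicate 3. In 3A10t it was 2 without 3A10t replicate 1, when Tgfbr2 was called too (adjusted p 3.1e-04).

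Of 62 other genes of the pathway, 49 were expressed enough to test. In EV+IL-2 against EV no IL-2, 13 of them were called, 10 higher and 3 lower, against 13.3% of all genes, 8.17% higher and 5.13% lower. The counts of single lists in this comparison stand against the same shares. Of 9 tested genes listed as induced by TGF-beta in T cells or widely, 4 rose, namely Cdkn1a, Id1, Cdkn2b and Junb. Cdkn1a encodes the cell cycle inhibitor p21 and had the largest difference, with scaled TPM of 257.5, 290.6 and 236 against 64.6, 67.3 and 62.5, a log2 difference of 1.99 (SE 0.23, limma adjusted p 2.2e-04). Id1, an inhibitor of basic helix-loop-helix factors that is best known as a target of the related BMP signals, was at 10.5, 8.69 and 8.23 against 2.04, 2.25 and 1.75 (log2 difference 1.75, adjusted p 2.3e-04). Cdkn2b, which encodes the inhibitor p15, and Junb, an AP-1 factor, rose by 0.70 and 0.62 on the log2 scale. Which signal acted on these genes was not measured.

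Among the genes of ligand handling, 1 of 8 rose, Lrrc32, which encodes the GARP protein that holds latent TGF-beta on Tregs. It was at 176, 184 and 163 scaled TPM in EV+IL-2 against 87.1, 100.1 and 97.6 in EV no IL-2 (log2 difference 0.87, SE 0.16, limma adjusted p 0.0041). In 3A10t it was at 88.8, 59.5 and 55.1, with a log2 difference of -0.51 and an adjusted p of 0.0997. Replicate 1 of 3A10t lay with the EV no IL-2 libraries and the other two below them. Of 13 other receptors and co-receptors, 2 rose in EV+IL-2. These were Acvrl1, a type I receptor of the family, at 16.1 ± 0.923 against 4.89 (log2 difference 1.54, adjusted p 1.0e-05), and Bambi, a decoy receptor without kinase activity, from 1.10 to 3.34 (log2 difference 1.06, adjusted p 0.0014).

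Of 8 other SMADs and nuclear partners, the repressor genes Tgif1 and Tgif2 were called in EV+IL-2, in opposite directions. Tgif1 fell from 104, 104.7 and 94.7 to 59.6, 63.2 and 55.3 scaled TPM (log2 difference -0.76, limma adjusted p 2.5e-04), and Tgif2 rose from 9.12 to 13.0 on average (0.47, adjusted p 0.049). Of 11 genes of SMAD and receptor turnover, 2 rose and 2 fell. Nedd4l, a ubiquitin ligase that acts on SMAD2 and SMAD3, rose by 0.91 (adjusted p 0.0051), and Pmepa1, which sequesters these SMADs, by 0.41 (adjusted p 0.022). Ldlrad4, a relative of Pmepa1 that also restrains SMAD phosphorylation, fell from 29.2 to 15.3 scaled TPM (log2 difference -0.89, adjusted p 7.4e-05), and Usp11, a deubiquitinase of the pathway, fell from 4.27 to 2.28 (-0.69, adjusted p 0.044). The calls of Tgif2, Usp11, Pmepa1 and Junb held in 7 of 22, 11 of 21, 17 of 22 and 19 of 22 alternatives. Each was lost without EV no IL-2 replicate 3 or EV+IL-2 replicate 1, among others, with adjusted p up to 0.18, 0.14, 0.092 and 0.059. The other 9 kept an adjusted p of at most 0.030 in every alternative that tested them.

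In 3A10t against EV no IL-2, 1 of the 49 was called, against 2.05% of all genes. Itgae, the gene of the CD103 integrin chain that TGF-beta induces in T cells, fell from 30.7, 32.2 and 30.2 scaled TPM to 24.1, 11.1 and 12.1, with 34.9 as its highest value in EV+IL-2. The log2 difference was -1.02 (SE 0.22, limma adjusted p 0.044). The call held in 5 of 22 alternatives, with adjusted p up to 0.27. It was lost with the replicate block (0.053) and without any one library other than 3A10t replicate 1 (0.065 to 0.16), and without that library the adjusted p was 3.9e-05. The count of the 49 was 14 without 3A10t replicate 1 and 2 with the block. In 1G12t against EV no IL-2, 0 of the 49 were called, and Itgae was at 24.6, 27.8 and 27.3. Between the constructs, 5 of the 49 were called, against 4.27% of all genes. Trim33, Itgav, Smurf2 and Rnf111 were lower in 3A10t than in 1G12t, and Acvrl1 was higher. That count was 18 without 3A10t replicate 1 and 0 or 1 without any other library. Measured from EV+IL-2 instead, 23 of the 49 were called in 3A10t, 4 higher and 19 lower, where 10.3% of all genes were higher and 13.0% lower. In 1G12t 13 were called, 4 higher and 9 lower, where 9.69% of all genes were higher and 10.9% lower.

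**Figure D4:**
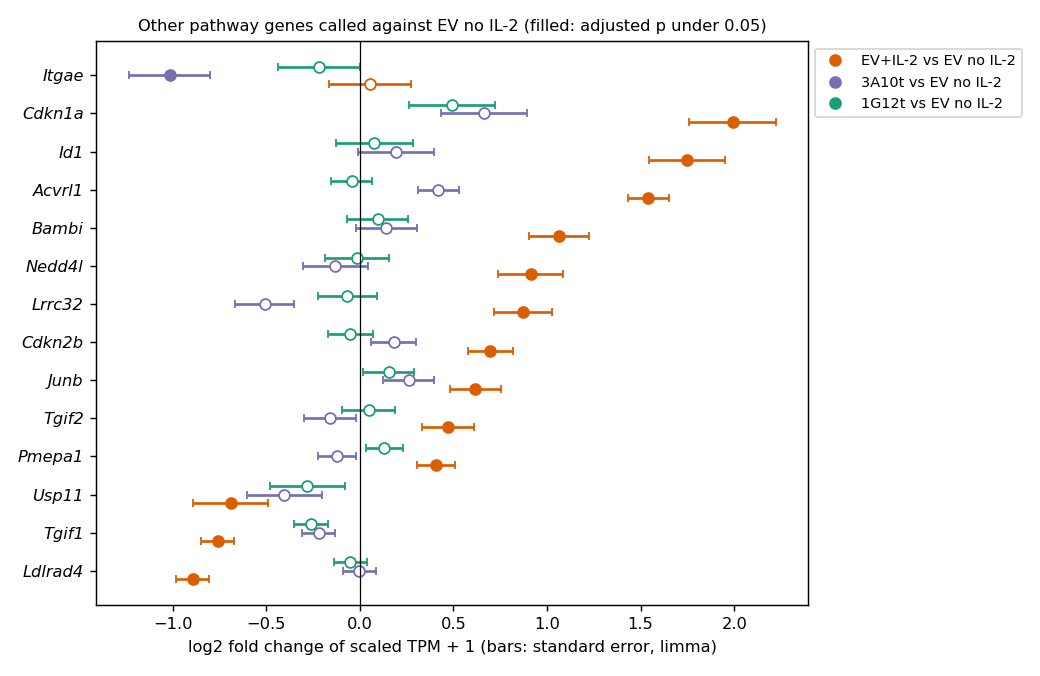
Log2 fold change, relative to EV no IL-2, of the 14 other pathway genes called in EV+IL-2 or 3A10t (x axis, log2 of scaled TPM + 1), with bars for the standard error from limma and filled markers for adjusted p under 0.05. The EV+IL-2 values run from -0.89 for Ldlrad4 to 1.99 for Cdkn1a, and Itgae is the only gene with a filled 3A10t marker, at -1.02.

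The 9 genes also varied together to different degrees over the 12 libraries, which include the differences between groups. Smad4 and Ski had the highest correlation of log2 values (Pearson r 0.92), followed by Smad4 with Smad7 and with Tgfbr1 (both 0.87). Tgfbr2 correlated most with Skil (0.79) and Smad4 (0.77). Tgfb1 and Smad2 stood apart, with r of at most 0.39 and 0.43 with any other of the 9. Among 10041 genes averaging at least 5 TPM, the pattern most like that of Tgfbr2 was that of Fam78a (r 0.99), then Arhgef3 and Tbc1d14 (both 0.98). The closest to Smad4 were Kdm7a (0.98), Sptbn1 and Cblb (both 0.97), and the closest to Smad3 were Inpp4a (0.97), Camsap2 and Ppp6r3 (both 0.96). Those of Smad7 were Grk2 (0.96), Asxl1 (0.95) and Lrig1 (0.94), those of Ski were Zfp36l2, Xiap (both 0.95) and Pcnx (0.94), and those of Skil were Tbc1d30 (0.94), Endod1 (0.93) and Pan2 (0.92). Smad2 was most like Cct2 (0.96), Rabl3 and Fam49b (both 0.95), and Tgfbr1 most like Gon4l, Ssh2 (both 0.92) and Prex1 (0.91). Tgfb1 had the least close neighbours, Gramd1b (0.87), Spag9 and Pim1 (both 0.86). These correlations are descriptions, since all genes share the libraries and their scaling.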

How the data were processed

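RNA was measured by bulk RNA-seq in 12 libraries, 3 in each of 4 groups, which were taken from the sample labels. The authors used cutadapt 1.18 for trimming and STAR 2.5.3 for alignment to mm10 (GRCm38), and estimated expression with RSEM 1.3.0, and they tested counts with DESeq2 1.26, as the submitters' processing notes name. The deposited values are TPM, already divided by transcript length and library total, for 55228 symbols. All 12 columns were used, and TPM keep no depth.

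TPM were divided by median-of-ratios factors, and genes averaging at least 1 TPM were tested by limma 3.58.1 in R 4.3.3 (eBayes, intensity trend) after adding a pseudocount of 1 and taking log2, with 1 mean per group, all 12 libraries and no block. Adjustment was by Benjamini-Hochberg over all 15043 genes. There were 6 comparisons. Fit and calls were tested on simulated data. Alternatives were another pseudocount, filter or scaling, a fit of the 6 libraries of a comparison alone, a replicate block, no trend, 1 weight per group and each library left out in turn.

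The genes, pathway lists and tests were chosen with earlier results of these data known. The text names the 9 genes in every comparison, the closest 3 genes in pattern for each, and the pathway genes called against EV no IL-2. Foxp3, the other tested genes listed as induced by TGF-beta and the 5 pathway genes called between the constructs were chosen after their values were seen. The cell type markers were Cd3e, Cd4, Foxp3, Il2ra, Ctla4 and Ikzf2 for T cells and Tregs, Cd79a, Cd79b and Ms4a1 for B cells, Lyz2, Cst3, Csf1r, S100a8 and S100a9 for myeloid cells, Cd8a and Cd8b1 for CD8 T cells, Pf4, Ppbp and Itga2b for platelets and megakaryocytes, and Col1a1, Col1a2 and Pdgfra for fibroblasts.

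The labels give the replicate number as a shared sort, which pairs the libraries. Deviations from group means correlated by 0.041 on average over 18 same-number pairs of libraries (-0.11 to 0.15, 3 pairs over 0.1) and by -0.020 over 36 pairs with different numbers. Block values stand beside the results they changed. Positions come from GENCODE M21 (GRCm38), and promoters are from RefSeq (GRCm38.p6). Python 3.11.15 with pandas 2.3.3 and matplotlib 3.10.9 was used for figures and sequences.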

Additional observations from a re-analysis of the deposited data

How the results depend on the processing

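Of the calls among the 9 genes, Smad3 in 3A10t against EV+IL-2 held in 17 of 22 alternatives, Smad7 and Smad4 in 1G12t against EV+IL-2 in 14 and 12, and Tgfbr2 in EV+IL-2 and in 3A10t against EV no IL-2 in 8 each, and all 5 kept their direction in every one. Each of these calls had an adjusted p between 0.019 and 0.047, depth is unknown, and no cause of a changed call was tested. No filter on low TPM gave 0 of the 9 genes in EV+IL-2 and 0 in 3A10t against EV no IL-2, and 0, 0 and 22 of the other pathway genes in 3A10t against EV no IL-2, in 3A10t against 1G12t and in 1G12t against EV+IL-2. A mean TPM of at least 5 gave 4 of the 9 in 3A10t against 1G12t, and 8, 2 and 7 pathway genes in EV+IL-2 against EV no IL-2, 3A10t against EV no IL-2 and 1G12t against EV+IL-2. TPM as deposited gave 0, 7 and 4 of the 9 in EV+IL-2 against EV no IL-2, in 3A10t against 1G12t and in 1G12t against EV+IL-2, and 10 pathway genes in 3A10t against 1G12t. Quantile normalization gave 2 and 4 of the 9 in EV+IL-2 against EV no IL-2 and 1G12t against EV+IL-2, and 0 pathway genes in 3A10t against EV no IL-2. Only the 6 libraries compared gave 2, 0 and 1 of the 9 in EV+IL-2 and 3A10t against EV no IL-2 and 1G12t against EV+IL-2, and 0, 0 and 11 pathway genes in 3A10t against EV no IL-2, 1G12t and EV+IL-2. The replicate block gave 2 of the 9 in 3A10t against EV no IL-2 and 2 against 1G12t, and 2 pathway genes in 3A10t against EV no IL-2. Beside the calls named in the report, the block changed no other call of the 9 genes. Without a trend 0 of the 9 were called in EV+IL-2 and 0 in 3A10t against EV no IL-2, and 0 pathway genes in 3A10t against EV no IL-2 or 1G12t. With 1 weight per group the counts were 3, 0 and 5 of the 9 in EV+IL-2 against EV no IL-2, 3A10t against EV+IL-2 and 1G12t against EV+IL-2, and 0, 0 and 21 pathway genes in 3A10t against EV no IL-2, in 3A10t against 1G12t and in 1G12t against EV+IL-2.

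Signs turned only where a log2 difference was small and not called. With TPM as deposited these were Smad2 in EV+IL-2 (-0.024) and Skil in 1G12t (0.0063) against EV no IL-2, Smad2 in 3A10t against 1G12t (-0.17), Skil in 3A10t (-0.057) and Smad3 in 1G12t (0.017) against EV+IL-2. With quantile normalization they were Skil in 1G12t against EV no IL-2 (0.021), Tgfbr1 (0.026), Smad4 (0.052), Smad7 (0.090) and Ski (0.069) in 3A10t against EV+IL-2, and Tgfb1 in 1G12t against EV+IL-2 (-0.011). TPM as deposited moved the share of all called genes that were higher from 30.5% to 6.9% in 3A10t against 1G12t, from 22.1% to 10.6% in 3A10t against EV no IL-2 and from 47.0% to 61.3% in 1G12t against EV+IL-2.

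Leaving out 1 library at a time gave 0 to 2 of the 9 genes in EV+IL-2 against EV no IL-2, 0 to 4 in 3A10t against EV no IL-2, 0 to 5 in 3A10t against 1G12t, 0 to 2 in 3A10t and 0 to 5 in 1G12t against EV+IL-2. It gave 0 to 14 pathway genes in 3A10t against EV no IL-2, 0 to 18 against 1G12t and 14 to 28 against EV+IL-2. The signs that turned had log2 differences of -0.00684 to 0.076 for Smad2 and -0.021 to 0.23 for Smad3 in EV+IL-2 against EV no IL-2, -0.19 to 0.031 for Tgfb1 and -0.24 to 0.010 for Smad2 in 3A10t against EV no IL-2, and -0.013 to 0.20 for Tgfbr1, -0.10 to 0.15 for Smad3, -0.085 to 0.28 for Smad7 and -0.078 to 0.027 for Skil in 1G12t against EV no IL-2. They ran from -0.070 to 0.18 for Smad2 in 3A10t against 1G12t, from -0.22 to 0.018 for Smad4, -0.22 to 0.074 for Smad7, -0.28 to 0.096 for Ski and -0.00730 to 0.079 for Skil in 3A10t against EV+IL-2, and from -0.15 to 0.14 for Tgfb1 in 1G12t against EV+IL-2.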
